A study of Triticum aestivum with 32 samples.

Results

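Phytochrome B (PHYB) was followed through 3 gene models of the bread wheat genome, TraesCS4A02G122500 on chromosome 4A (the A copy), TraesCS4B02G182400 on 4B (the B copy) and TraesCS4D02G183400 on 4D (the D copy). They were taken by identifier from a table of 269428 gene models, all 3 were present, and all 3 passed the filter of at least 1 TPM in at least 4 libraries that left 60684 gene models for testing. TPM, the relative transcript abundance in the table, divides the reads of a transcript by its length and scales each library to the same total, so levels of different genes can be compared. The table pairs identifiers with no gene names, so the name PHYB rests on the list of identifiers, and neither it nor the leaf identity of the samples was checked against marker genes. By their numbers, the A copy was number 1189 of 4861 high confidence gene models on 4A, the B copy 1774 of 3869 on 4B and the D copy 1784 of 3579 on 4D.

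Flag leaf RNA came from Stettler, a Canadian red spring wheat grown in greenhouse pots under 16 h days, and treatments began at Feekes stage 8, 5 weeks after sowing. The stresses drought, heat and salt were given singly, in pairs (heat plus drought, salt plus heat, salt plus drought) and all at once (the triple stress). Each of these groups and the control had 4 libraries, 32 in all, which the series text calls independent biological replicates. With drought, soil water was held at 40% of field capacity, and without it at 100%. Heated pots stood in a second greenhouse at 30 °C for part of the day, the others in a greenhouse with 24 °C days and 18 °C nights, so heat and greenhouse cannot be told apart. Salt pots received sodium chloride raised in steps from 20 to 40 and then 80 mM. All groups shared the cultivar and the weekly fertiliser.

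Phytochrome B is a photoreceptor that red light turns into an active form, which far-red light turns back. In Arabidopsis the active form enters the nucleus and acts against the phytochrome interacting factors, transcription factors that promote elongation growth, and warmth speeds its return to the inactive form, which makes it a temperature sensor as well. In wheat, phytochromes B and C promote flowering under long days. These steps act on the protein, whereas the values here are RNA levels, and in whole leaves fewer cells of a type and less RNA per cell cannot be told apart.

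All 3 PHYB copies were expressed in every library, at similar levels. Over 32 libraries the A copy averaged 5.32 ± 1.20 TPM, the B copy 4.92 ± 1.17 TPM and the D copy 5.16 ± 1.25 TPM (SD, n = 32 each). Their means stood at the 61.0, 59.0 and 60.2 percentiles of the gene models tested, in the order A, B, D. RSEM, the program that made the values, divides reads that fit several copies among them, so the split between near-identical copies is an estimate. The order of A, D and B by mean did not hold in every library. The A copy was above the B copy in 24 of 32 libraries and above the D copy in 18. The B copy was above the D copy in 8. The A copy was the highest of the 3 in 16 libraries, the D copy in 11 and the B copy in 5. The ratio of A to B was 1.09 ± 0.14, that of A to D 1.04 ± 0.11 and that of B to D 0.96 ± 0.10 (SD, n = 32). No neighbouring pair in the order thus differed by more than its spread over libraries, and the mean ratios were not tested.

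The A copy held 34.7% ± 2.36 of the summed PHYB TPM, the D copy 33.4% ± 1.82 and the B copy 31.9% ± 2.23 (SD, n = 32). Shares ran from 31.2% to 40.2% for the A copy, 29.4% to 36.7% for the D copy and 26.4% to 36.4% for the B copy. No treatment group departed far from equal shares: the ratio of group means of A to B lay between 0.986 in the triple stress and 1.16 in drought, and that of A to D between 0.981 in heat plus drought and 1.1 in heat.

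**Figure D1:**
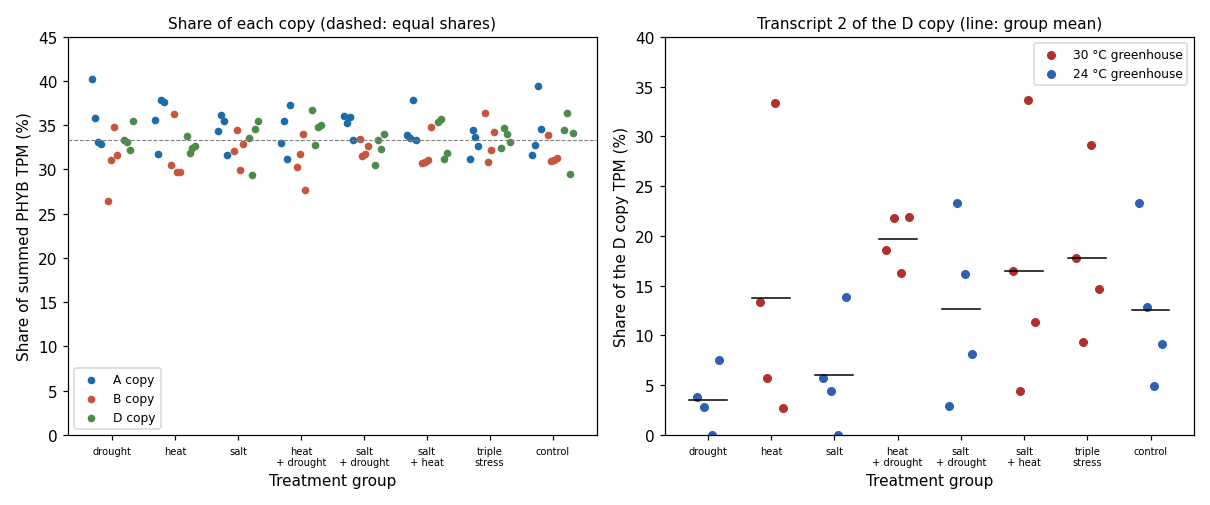
Left, the share of the summed PHYB TPM (%) held by the A, B and D copies in each of 32 libraries, by treatment group. Right, the share of the D copy's TPM (%) in its transcript 2, each point 1 library and each line a group mean; copy shares lie between 26.4% and 40.2%, and the 4 heat plus drought libraries lie between 16.3% and 21.8% on the right.

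The annotation splits the copies into 6 transcripts. The A copy has 3, of which transcript 2 carried nearly all of the signal, with 2.91 to 8.10 TPM. Transcript 1 of the A copy was above 0 in 2 libraries, with 0.24 TPM in heat replicate 1 and 0.53 TPM in heat plus drought replicate 4, and transcript 3 was listed at 0 in all 32. The B copy has a single transcript. The D copy has 2, and transcript 2 was the smaller, with 0 to 2.25 TPM (median 0.56) against 2.46 to 6.69 TPM (median 4.45) for transcript 1.

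Transcript 2 held 12.8% ± 9.33 of the D copy over all libraries (SD, n = 32), the most variable feature of the triad. Its group means ran, from high to low, 19.6% ± 2.68 in heat plus drought, 17.7% ± 8.37 in the triple stress, 16.5% ± 12.5 in salt plus heat, 13.8% ± 13.8 in heat, 12.6% ± 8.96 in salt plus drought, 12.5% ± 7.87 in control, 5.99% ± 5.78 in salt and 3.53% ± 3.12 in drought (SD, n = 4 each). The 4 heat plus drought libraries held 18.6%, 21.8%, 16.3% and 21.8%, against 3.76%, 2.79%, 0% and 7.55% in drought, and these ranges did not overlap. This pair was picked as the highest and lowest of the 8 means, and how many other transcripts show such a gap was not counted. In drought transcript 2 stood at only 0 to 0.29 TPM, and in heat plus drought at 0.83 to 1.35 TPM. Within heat alone the range was 2.72% to 33.3% and within salt plus heat 4.46% to 33.7%, wider than the gaps between most group means.

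The A copy stood at 4.49, 5.41, 3.18 and 3.56 TPM in drought replicates 1 to 4, against 4.93, 5.10, 3.54 and 5.46 TPM in control. With heat it stood at 3.15, 4.72, 4.31 and 6.79 TPM, and with salt at 6.41, 5.91, 4.66 and 6.43 TPM. Both single stresses overlapped control, and heat had the lowest A value of all 32 libraries. Heat plus drought gave 6.12, 5.46, 4.56 and 6.57 TPM, and salt plus drought 5.72, 5.86, 5.66 and 4.95 TPM. Salt plus heat gave 7.69, 4.21, 8.10 and 4.32 TPM, and the triple stress 6.09, 6.68, 5.13 and 5.14 TPM. The salt plus heat group split, with replicates 1 and 3 above all other libraries and replicates 2 and 4 below the control mean of 4.76 ± 0.84 TPM (SD, n = 4).

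The B copy stood at 2.95, 4.69, 3.34 and 3.42 TPM in drought, against 5.28, 4.82, 2.79 and 4.94 TPM in control. Of the drought libraries all 4 were below 3 of the controls, but control replicate 3 was lower than any drought library. With heat it stood at 2.70, 5.39, 3.39 and 5.35 TPM, and with salt at 5.99, 5.65, 3.94 and 6.70 TPM. Heat plus drought gave 5.63, 4.89, 4.98 and 4.89 TPM, and salt plus drought 5.30, 5.24, 4.99 and 4.85 TPM. These were the most even groups for the B copy, with SDs of 0.36 and 0.21 TPM (n = 4). Salt plus heat gave 6.96, 3.87, 6.65 and 4.51 TPM, and the triple stress 7.12, 5.97, 4.90 and 5.38 TPM. The same salt plus heat libraries were high as for the A copy.

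The D copy stood at 3.72, 5.01, 3.09 and 3.84 TPM in drought, against 5.37, 5.67, 2.65 and 5.39 TPM in control. Its lowest value of all was control replicate 3. With heat it stood at 2.99, 4.73, 3.69 and 5.88 TPM, and with salt at 6.27, 4.81, 4.54 and 7.22 TPM. Heat plus drought gave 6.82, 5.05, 5.09 and 6.18 TPM, and salt plus drought 4.84, 5.54, 5.08 and 5.05 TPM. Salt plus heat gave 8.01, 4.48, 6.68 and 4.13 TPM, and the triple stress 6.34, 6.73, 5.18 and 5.20 TPM. For each copy every stress group overlapped control.

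**Figure D2:**
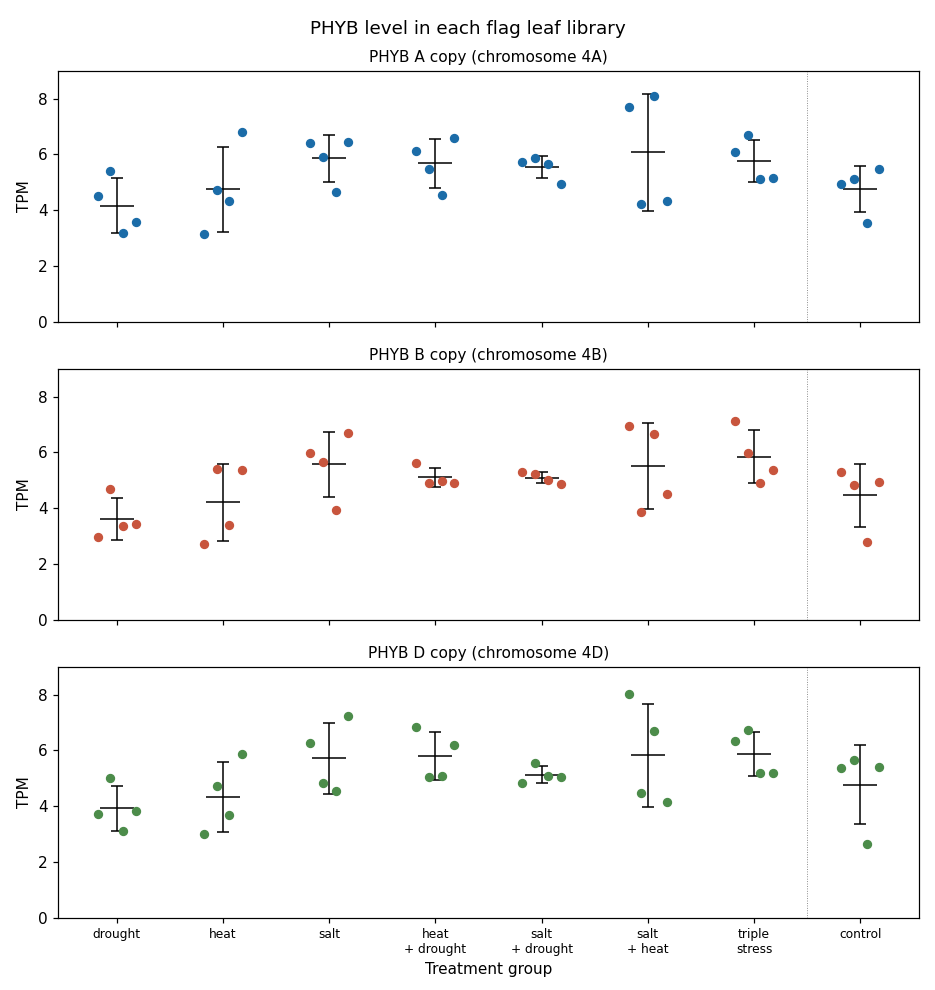
TPM of each PHYB copy in each library, by treatment group with control at the right; points are libraries in replicate order, wide bars the group mean and error bars the SD (n = 4). Drought has the lowest mean of each copy (4.16, 3.60 and 3.92 TPM for A, B and D), and control replicate 3 and heat replicate 1 are low for all 3 copies.

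Summed over the copies, PHYB was highest in the triple stress at 17.5 ± 2.32 TPM, followed by salt plus heat at 17.4 ± 5.39, salt at 17.1 ± 3.12, heat plus drought at 16.6 ± 1.85, salt plus drought at 15.8 ± 0.73, control at 14.0 ± 3.34, heat at 13.3 ± 4.01 and drought at 11.7 ± 2.38 TPM (SD, n = 4 each). Each neighbouring pair in this order overlapped, and each gap, 0.06 to 1.79 TPM, was smaller than the larger SD of the pair.

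No PHYB copy passed the test in a comparison of a single stress group with control when all libraries had equal weight. Of these 21 tests (limma, Benjamini-Hochberg over 60684 gene models), 0 passed an adjusted p of 0.05 and 0 had an unadjusted p under 0.05. The share of all gene models called was 1.33% for drought, 1.21% for heat, 1.46% for salt, 2.58% for heat plus drought, 1.79% for salt plus drought, 9.51% for salt plus heat and 13.6% for the triple stress. The largest difference was that of the B copy under the triple stress, 5.84 ± 0.96 TPM against 4.46 ± 1.13 TPM in control (SD, n = 4 each; log2 change of TPM + 1 of 0.34, SE 0.19, adjusted p = 0.227 by limma), and the 95% interval of the ratio was 0.97 to 1.66. Without control replicate 3, the lowest control for each copy, that log2 change was 0.18 (limma adjusted p = 0.628).

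With heat alone the A copy had a ratio to control of 0.98 (95% interval 0.75 to 1.28), the B copy 0.95 (0.72 to 1.24) and the D copy 0.93 (0.70 to 1.23), on the TPM + 1 scale. These intervals are too wide to show that the levels were alike. With drought alone the ratios were 0.89 (0.68 to 1.16) for A, 0.85 (0.65 to 1.11) for B and 0.87 (0.66 to 1.15) for D. The median log2 change of all gene models in that comparison was -0.16, with -0.17, -0.23 and -0.20 for the A, B and D copies. Without control replicate 3 the copies had -0.28, -0.40 and -0.41 (limma adjusted p = 0.342, 0.148 and 0.139). When libraries were weighted by their spread, the B and D copies fell by 0.42 and 0.44 on the log2 scale with drought (limma adjusted p = 0.0147 and 0.0208). Over all settings other than the omission of single libraries, the adjusted p ran up to 0.919 for the B copy and 0.96 for the D copy. Gene models called for drought numbered 11 to 21073 over those settings, against 806 with equal weights. The share of all gene models called with library weights is not given here, so these calls have no background beside them.

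**Figure D3:**
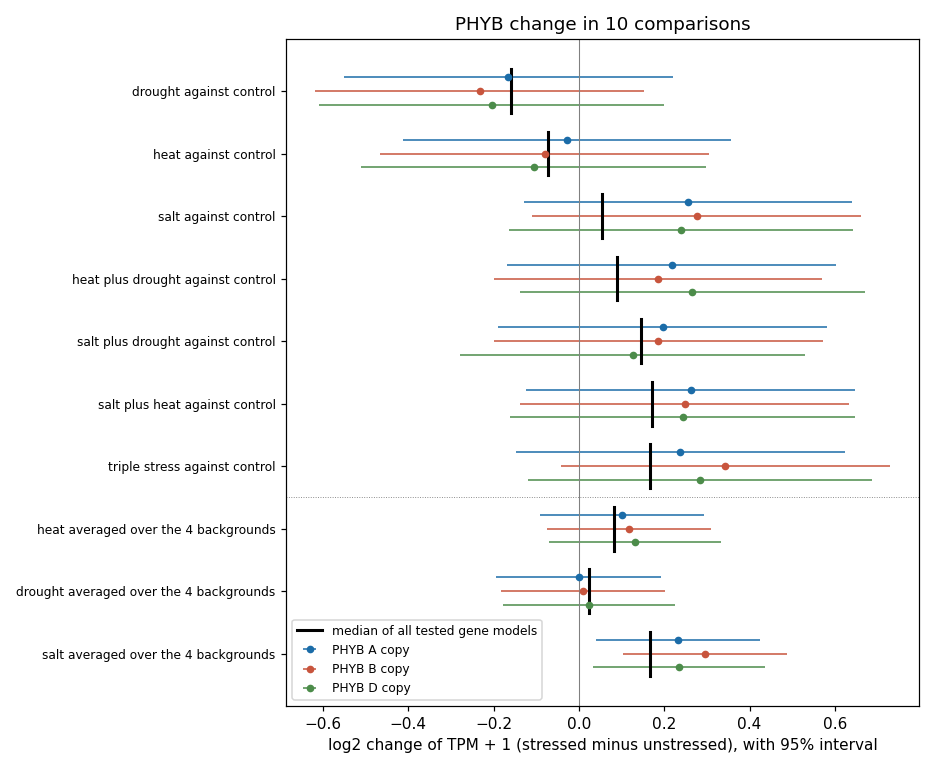
Log2 change of TPM + 1 of the A, B and D copies with 95% intervals in 7 comparisons with control and 3 effects averaged over backgrounds (horizontal axis, stressed minus unstressed); black bars mark the median change of all tested gene models. The intervals of the 7 comparisons with control all cross 0, and the 3 points of the averaged salt effect lie right of 0 and of the median of 0.17.

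The treatments cross heat, drought and salt, so each stress was also averaged over the 4 backgrounds of the others, 16 libraries with it and 16 without. Salt was the stress with which PHYB differed most. The B copy rose, to 5.50 ± 1.01 TPM with salt against 4.34 ± 1.04 TPM without (SD, n = 16 each; log2 change 0.30, SE 0.09, adjusted p = 0.0193 by limma). The A copy averaged 5.81 ± 1.1 TPM with salt and 4.83 ± 1.13 TPM without (log2 change 0.23, SE 0.09, limma adjusted p = 0.0577). The D copy averaged 5.63 ± 1.11 TPM with salt and 4.70 ± 1.23 TPM without (log2 change 0.23, SE 0.10, limma adjusted p = 0.0663). All 3 had an unadjusted p under 0.05 and 1 of 3 was called, where 32.9% of all gene models were called and 29.0% were called higher, so 1 of 3 is near the background.

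The median log2 change of all gene models with salt was 0.17, and the copies exceeded it by 0.07 (A), 0.13 (B) and 0.07 (D). Quantile normalisation sets all libraries to a common distribution of values, and left 10.2% of gene models higher and 9.52% lower with salt, in place of 29.0% and 3.95%. The B copy then had a log2 change of 0.12 (SE 0.05, limma adjusted p = 0.0893) and was no longer called, and the A and D copies had 0.05 (adjusted p = 0.606 and 0.545). Over all settings that changed the scaling, filter, model or weights, the adjusted p of the B copy ran from 0.0095 to 0.0983, and it stayed called without any 1 of the 32 libraries (0.00837 to 0.0364). Leaving out 1 library brought the A copy under 0.05 in 6 of 32 cases and the D copy in 5.

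Within the 4 backgrounds the values with salt were higher for every copy, 12 of 12 differences, by 0.02 to 0.42 on the log2 scale. The copies varied together over the same libraries, so these 12 are not independent. The median of all gene models also rose with averaged salt, by 0.17, and the share of gene models higher in all 4 backgrounds was not counted. The largest was the B copy under salt plus drought, at 4.85 to 5.30 TPM against 2.95 to 4.69 TPM in drought. These ranges did not overlap, as for 21.4% of all gene models in that direction. The smallest were the D and A copies under the triple stress, with log2 differences of 0.02 each from heat plus drought. After median-of-ratios scaling, which divides each library by its typical ratio to the others, 9 of the 12 differences were above 0. The B copy ranges under salt plus drought and drought then overlapped, with a log2 difference of 0.09 in place of 0.42.

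Averaged heat gave no call. The A copy averaged 5.57 ± 1.37 TPM with heat and 5.08 ± 0.99 TPM without (log2 change 0.10, SE 0.09, limma adjusted p = 0.532). The B copy averaged 5.16 ± 1.21 TPM with heat and 4.68 ± 1.11 TPM without (log2 change 0.12, adjusted p = 0.458). The D copy averaged 5.45 ± 1.31 TPM with heat and 4.88 ± 1.15 TPM without (log2 change 0.13, adjusted p = 0.422). Among all gene models 9.77% were called, and the median log2 change was 0.08. The 95% intervals of the ratios reached from 0.94 to 1.23 for A, 0.95 to 1.24 for B and 0.95 to 1.26 for D. The clearest heat difference was in droughted pots, where the D copy stood at 5.05 to 6.82 TPM under heat plus drought and at 3.09 to 5.01 TPM under drought, and the B copy at 4.89 to 5.63 TPM and 2.95 to 4.69 TPM. In both cases the ranges did not overlap, as for 19.2% of all gene models in that direction. After median-of-ratios scaling the ranges overlapped for both copies. The log2 differences were then 0.19 for the D copy and 0.15 for the B copy, in place of 0.47 and 0.42.

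Averaged drought gave ratios closest to 1, with 0.801% of all gene models called. The A copy averaged 5.29 ± 0.98 TPM with drought and 5.36 ± 1.42 TPM without (SD, n = 16 each), a ratio of TPM + 1 of 1.0 (95% interval 0.87 to 1.14). For the B copy the ratio was 1.01 (0.88 to 1.15) and for the D copy 1.02 (0.88 to 1.17).

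The interactions asked whether the change with 1 stress differed when another was present. Of 12 such tests 0 were called and 0 had an unadjusted p under 0.05, and 0.359%, 0.0313%, 0.259% and 0.29% of all gene models were called for heat by drought, heat by salt, drought by salt and the term of all 3. The largest 2-way terms were heat by drought for the D copy (log2 0.37, SE 0.20, limma adjusted p = 0.502) and the B copy (log2 0.34, SE 0.19, adjusted p = 0.511). With libraries weighted by their spread these became 0.53 and 0.44 and passed (limma adjusted p = 0.026 and 0.0383). Over the other settings the adjusted p reached 0.683 for the D copy and 0.69 for the B copy. Gene models called for heat by drought numbered 98 to 5613 over those settings, against 218 with equal weights, and the share called with weights is not given here. The term of all 3 stresses was -0.38 (SE 0.38) for A, -0.31 (SE 0.38) for B and -0.42 (SE 0.39) for D on the log2 scale. The median of all gene models was -0.42 for this term and 0.10 for heat by drought. After quantile or median-of-ratios normalisation the term of all 3 stresses was above 0 for each copy. With 4 libraries per group come wide intervals here. For the D copy the 95% interval of the ratio of changes was 0.97 to 1.70 for heat by drought. For the term of all 3 stresses it was 0.43 to 1.31.

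PHYB values moved with the make-up of the libraries. The 3 lowest sums of the copies were 8.84 TPM in heat replicate 1, 8.98 in control replicate 3 and 9.61 in drought replicate 3. In these libraries the 100 most abundant gene models held 36.1%, 33.5% and 33.3% of all TPM, the 3 highest such shares. The highest sums, 22.7 and 21.4 TPM in salt plus heat replicates 1 and 3, came with shares of 17.3% and 13.6%. Salt replicate 3 had the lowest sum with salt alone, 13.1 TPM, and low confidence gene models held 21.6% of its TPM, with 9.24% to 9.83% in salt replicates 1, 2 and 4. Since the TPM of a library have a fixed total, less for its abundant genes means more for the rest. The part of this in the salt difference was not tested beyond the rescaled values above.

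Over 32 libraries the log2 level of each copy ran against the share of the 100 most abundant gene models. Pearson's r was -0.85 for the A copy (Spearman's rho -0.73), -0.88 for the B copy (rho -0.78) and -0.85 for the D copy (rho -0.73). The permutation p was 1e-05 for each r and rho, the smallest that 100000 permutations can give, and 1e-05 after adjustment over 6 relations. These permutations shuffled libraries across treatment groups. With values taken as deviations from their group means, r was -0.80, -0.82 and -0.82 (A, B, D). The r of other gene models with this share was not computed, so the p shows nothing particular to PHYB. Without heat replicate 1 and control replicate 3, the libraries farthest from the median share, r was -0.79, -0.82 and -0.79. Within the 30 °C greenhouse r was -0.84, -0.93 and -0.85, and within the 24 °C greenhouse -0.85, -0.81 and -0.86 (n = 16 each, in the order A, B, D). Among the 16 libraries with salt r was -0.74, -0.61 and -0.66, and among the 16 without -0.87, -0.94 and -0.91. After median-of-ratios scaling of the levels r over 32 libraries was -0.40, -0.66 and -0.56.

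**Figure D4:**
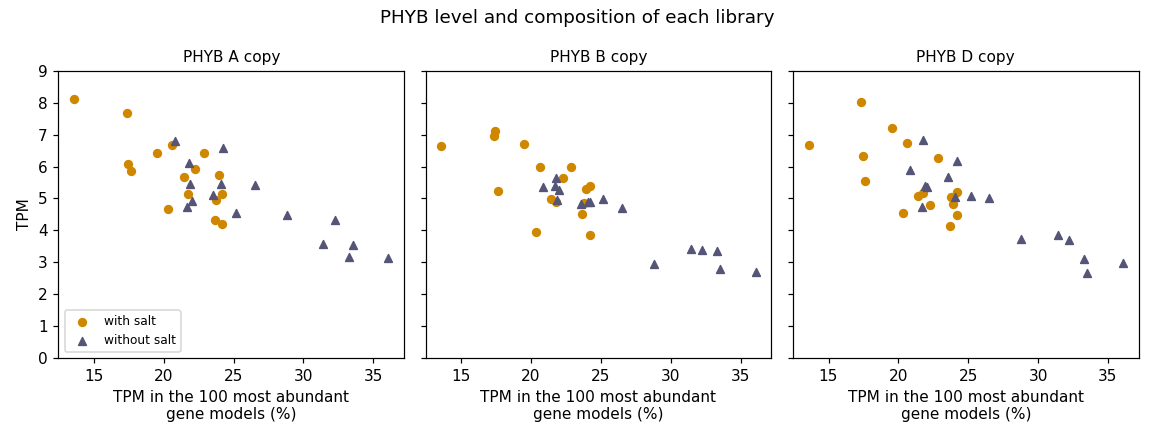
TPM of each PHYB copy (vertical axis) against the percentage of all TPM held by the 100 most abundant gene models (horizontal axis), 1 point per library, 16 with salt and 16 without. Levels decline from left to right for each copy, with r of -0.85, -0.88 and -0.85 for A, B and D on the log2 scale.

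The copies also varied together. Pearson's r was 0.87 between A and B, 0.91 between A and D and 0.92 between B and D (Spearman's rho 0.84, 0.88 and 0.83; permutation p = 1e-05 for each, before and after adjustment over 6 relations, the smallest possible). Such coefficients were common: 3871 of 22232 high confidence gene models had r above 0.8 with summed PHYB, so the p shows nothing particular to the triad. Without the 2 libraries farthest from the median of the first-named copy, r was 0.84, 0.88 and 0.89. Within the 30 °C greenhouse r was 0.85, 0.94 and 0.91, and within the 24 °C greenhouse 0.89, 0.89 and 0.92. After median-of-ratios scaling the coefficients were 0.49, 0.68 and 0.67. Reads shared by the copies and divided among them by RSEM can enter these coefficients, and their part was not tested.

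Once libraries were scaled, PHYB levels were narrow. As deposited, the highest library exceeded the lowest 2.57-fold for the A copy, 2.64-fold for the B copy and 3.02-fold for the D copy. After median-of-ratios scaling these folds were 1.60, 1.61 and 1.67. The SD of log2(TPM + 1) over 32 libraries was 0.28, 0.30 and 0.30 as deposited and 0.16, 0.14 and 0.16 after scaling, for A, B and D. Among the 18968 gene models with mean levels of 3 to 10 TPM the scaled SDs stood at the 11.2, 6.78 and 12.2 percentiles, below a median of 0.26. The SDs as deposited stood at the 26.8, 37.0 and 38.6 percentiles, below a median of 0.33. This is a description of where the copies lie, with no test.

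The gene models whose levels followed summed PHYB most closely over the 32 libraries were TraesCS1B02G152200 (r = 0.97), TraesCS7A02G313600 (0.96), TraesCS4A02G289400 (0.95), TraesCS1A02G100400 (0.95) and TraesCS6A02G417500 (0.95). The lowest coefficients were those of TraesCS5A02G402600 and TraesCS3B02G398300 (-0.88 each), which averaged 230.2 and 330.1 TPM. They come from 22232 high confidence gene models with means of at least 5 TPM, of which 3871 had r above 0.8 (median r 0.60), so a high coefficient was common. After quantile normalisation the median r was 0.05, and the first 5 had 0.79, 0.77, 0.77, 0.85 and 0.80. TraesCS1A02G100400, at 2.81 to 7.86 TPM, then ranked first of all. The files do not annotate these identifiers.

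The neighbours of each copy along its chromosome were examined for libraries in which the whole stretch was low. For the 10 nearest expressed gene models around each copy (TraesCS4A02G121400 to TraesCS4A02G123600, TraesCS4B02G181400 to TraesCS4B02G184400, and TraesCS4D02G182600 to TraesCS4D02G184600), the median log2 ratio of a scaled library to its group mates lay between -0.27 and 0.28 on 4A, -0.17 and 0.21 on 4B and -0.30 and 0.19 on 4D. With averaged salt the neighbours had median log2 changes of 0.19, 0.22 and 0.28 on 4A, 4B and 4D, against 0.23, 0.30 and 0.23 for the A, B and D copies. With averaged heat the neighbours' medians were 0.10, 0.20 and 0.14, against 0.10, 0.12 and 0.13 for the copies. Each copy thus lay within the range of its neighbours in both comparisons.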

How the data were processed

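The authors deposited TPM for 298774 transcripts in 32 flag leaf libraries, 1 column each, with 0 columns left unmapped. Filtered reads, per the submitters' processing notes and the series text, were aligned with STAR and TPM were estimated with RSEM 1.3.3 on the IWGSC 1.1 annotation. TPM keep no read number, so depth is unknown and no counting interval is given. The authors' TPM were summed over transcripts of each gene model, and log2(TPM + 1) was fitted with limma 3.58.1 (R 4.3.3, eBayes with a trend), 1 mean per group, 24 residual degrees of freedom, 60684 gene models, 14 comparisons, two-sided, Benjamini-Hochberg threshold 0.05. Fold changes on this scale understate changes of low genes. The model was tested on simulated data with independent noise for each gene model and no shift shared by a whole library. That test therefore cannot vouch for calls where the make-up of libraries differs. Correlations used two-sided permutation tests.

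The members, lists and tests were chosen with earlier results of these data known. Named by rule were the 3 copies, the 5 highest and 2 lowest correlates and 10 neighbours per copy. Lists of other phytochrome genes and leaf markers were planned but not run, since a reference table of 155467 genes matched 0 identifiers, and no sequence is printed. Same-numbered replicates are paired by number only. Alternatives were other pseudocounts, filters, scalings, blocks, weights, models of compared groups, and omitted libraries.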

Additional observations from a re-analysis of the deposited data

Results flagged for a closer look

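In 8 measures (TPM of each copy and of their sum, the share of each copy, and the share of transcript 2 in the D copy) the 8 groups of 4 libraries were searched for a library far from its group mates, by Dixon's 95% limit. Of 64 such sets 7 held one, and chance flags about 1 set in 20. Control replicate 3 was low for the D copy, 2.65 TPM with the other controls at 5.37 to 5.67 TPM, and for the sum of the copies, 8.98 TPM with the others at 15.6 to 15.8 TPM. In that library the 100 most abundant gene models held 33.5% of all TPM, with 21.9% to 23.5% in control replicates 1, 2 and 4, and it enters all comparisons with control. Without it the log2 changes of the B and D copies against control were -0.40 and -0.41 for drought, -0.25 and -0.31 for heat, 0.11 and 0.032 for salt, 0.019 and 0.059 for heat plus drought, 0.020 and -0.081 for salt plus drought, 0.081 and 0.037 for salt plus heat and 0.18 and 0.077 for the triple stress. With all controls these were -0.23 and -0.20, -0.08 and -0.11, 0.28 and 0.24, 0.19 and 0.27, 0.19 and 0.13, 0.25 and 0.24, and 0.34 and 0.28, in the same order. For the A copy the values without it were -0.28, -0.14, 0.15, 0.11, 0.086, 0.15 and 0.13, and with all controls -0.17, -0.03, 0.26, 0.22, 0.20, 0.26 and 0.24. None of these 21 values without it passed the threshold (limma adjusted p = 0.139 to 0.987). Heat plus drought replicate 1 was high for the B copy, 5.63 TPM with the others at 4.89 to 4.98 TPM.

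The other 4 concerned shares. The A copy held 37.8% in salt plus heat replicate 3 (others 33.3% to 33.9%). The B copy held 36.3% in heat replicate 2 (others 29.7% to 30.5%), 34.8% in salt plus heat replicate 4 (others 30.7% to 31.0%) and 33.9% in control replicate 1 (others 30.9% to 31.3%). With equal weight for all libraries, none of the interaction tests of a copy was past the threshold (limma).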

How the results depend on the processing

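The log2 changes of the 3 copies in 14 comparisons were recomputed under 15 kinds of alternative, each library left out in turn among them, which gave 567 values with other settings and 840 with 1 library omitted. Of these, 515 and 781 kept direction and side of the threshold. The cause of the changes was not tested. Only the averaged salt effect of the B copy was called at first, with a log2 change of 0.30. It lost its call with quantile normalisation (0.12), median-of-ratios scaling (0.11), rescaling without the 100 most abundant gene models (0.21, adjusted p = 0.0563 by limma) and removal of the 4 libraries that stood apart (0.20, adjusted p = 0.0522), and kept it without any single library. The A copy passed for salt with at least 5 TPM required (0.23), without low confidence gene models (0.25) and with the number in the sample title as a block (0.29), and the D copy in the last 2 (0.26 and 0.29). Leaving out 1 library gave salt changes of 0.20 (without heat replicate 1) to 0.27 (without heat replicate 4) for A and 0.18 (without control replicate 3) to 0.27 for D. Both passed without heat replicate 4, drought replicate 2, salt replicate 3 or salt plus heat replicates 2 or 4, and A also without control replicate 4 (limma adjusted p = 0.0207 to 0.0492).

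With library weights the B and D copies were called for drought (-0.42 and -0.44) and for heat by drought (0.44 and 0.53). The share of all gene models called with these weights is not given here. Uncalled values also changed sign, most of them near 0, but among them salt plus heat (0.26, 0.25 and 0.24 for A, B and D) and the term of all 3 stresses (-0.38, -0.31 and -0.42). With library weights the sign turned for heat for A (0.021), salt plus drought for D (-0.065), salt plus heat for A, B and D (-0.070, -0.075, -0.14), averaged drought for B and D (-0.070, -0.036) and drought by salt for A, B and D (0.15, 0.21, 0.15). Without the 4 libraries that stood apart it turned for heat for A and B (0.12, 0.084), salt plus drought for D (-0.081), averaged drought for B and D (-0.15, -0.12) and drought by salt for A, B and D (0.056, 0.17, 0.075). Quantile normalisation turned drought for A (0.011), heat for A (0.042), salt plus drought for D (-0.016), averaged heat for A (-0.00034), averaged drought for B (-0.0037) and the term of all 3 stresses for A, B and D (0.11, 0.16, 0.057). Median-of-ratios scaling turned drought and heat for A (0.011, 0.050), salt plus drought for D (-0.025), averaged drought for B (-0.011) and the term of all 3 stresses (0.10, 0.15, 0.051). Averaged drought for A turned at pseudocounts of 0.1 and 0.5 (0.0014, 0.00015), without the 100 most abundant gene models (0.0096, with heat for A at 0.012) and with title numbers as a block (0.11), and for B without low confidence gene models (-3.7e-05).

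Omitting 1 library turned heat, with ranges of -0.19 to 0.12 for A, -0.25 to 0.071 for B and -0.31 to 0.022 for D, each highest without heat replicate 1. It also turned salt plus drought for D (-0.081 without control replicate 3, to 0.21), averaged drought (-0.037 to 0.039 for A, highest without heat replicate 4, and -0.032 to 0.037 for B and -0.028 to 0.060 for D, both lowest without control replicate 3), heat by salt for D (-0.17 to 0.0022, without control replicate 3) and drought by salt for B (-0.079 to 0.070, without control replicate 3). With the replicate number as a replicate block the B copy kept 0.30 for salt (limma adjusted p = 0.0194), no call of a copy changed, and the gene models called for the term of all 3 stresses became 450, from 176. Same-numbered libraries share only a number: 11 of 32 correlated best with their own.

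The background counts of gene models called moved more than those of the copies. Over all alternatives, with the reported count first, they were 806 (11 to 21073) for drought, 736 (90 to 1592) for heat, 884 (329 to 2780) for salt, 1568 (860 to 7169) for heat plus drought, 1084 (306 to 5220) for salt plus drought, 5773 (1375 to 7464) for salt plus heat and 8275 (4825 to 15448) for the triple stress. For averaged heat they were 5928 (2732 to 9585), for averaged drought 486 (22 to 3838) and for averaged salt 19964 (11959 to 23321). For the interactions they were 218 (74 to 5613), 19 (15 to 82), 157 (71 to 2703) and 176 (0 to 4939). With the most abundant transcript of each copy alone, the shares of A and B moved by less than their SD, and that of D was 30.5%, since its transcript 2 was left out. Depth is unknown, so no limit from counting can be given.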

Other observations

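In these libraries the smaller transcript of the D copy took a larger mean share of that copy in the heated greenhouse, a comparison chosen after its values were seen. The p values below therefore describe the difference and are no independent test of it. Their adjustment covers the 3 stresses and leaves out the other measures that were looked at. It held 16.9% ± 9.45 with heat and 8.67% ± 7.36 without (SD, n = 16 each), a difference of 8.25 percentage points (permutation test of libraries within the 4 backgrounds, 100000 resamples, two-sided, p = 0.013, adjusted p = 0.039 over the 3 stresses). The mean was higher with heat in 4 of 4 backgrounds, by 1.25 to 16.1 points. For drought the difference was 1.17 points (permutation p = 0.71, adjusted p = 0.79) and for salt 0.84 points (permutation p = 0.79, adjusted p = 0.79). Leaving out 1 library at a time gave 6.62 to 9.25 points, and the adjusted permutation p, 0.016 to 0.1, stayed under 0.05 in 19 of 32 cases, of which those without drought replicate 3 and heat plus drought replicate 2 lay at the limit (0.05 when rounded). The 13 libraries whose omission ended the call were control replicates 2, 3 and 4, heat replicate 3 (adjusted permutation p = 0.1), heat plus drought replicate 4, salt replicates 1, 2 and 3, salt plus drought replicates 1 and 4, salt plus heat replicates 1 and 3 and triple stress replicate 3. Without control replicate 3, heat replicates 1 and 3 and salt replicate 3 together, the difference was 4.72 points (permutation p = 0.18, adjusted p = 0.46). On the log2(TPM + 0.1) scale transcript 2 itself was 1.05 higher with heat (permutation p = 0.012, adjusted p = 0.037). It stood at 0 TPM in drought replicate 3 and salt replicate 3, both without heat, so this difference depends on the added 0.1. Transcript 1 stood at 4.52 ± 1.16 TPM with heat and 4.42 ± 0.94 TPM without (SD, n = 16 each). RSEM estimates how reads divide between the 2 transcripts, and at a median of 0.56 TPM the counting error of transcript 2 is unknown.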
